A study of Mus musculus with 24 samples.

Results

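Sun1, Sun2, Syne1 and Syne2 encode the SUN and nesprin proteins of the LINC complex, and their position relative to chromatin bound by lamin A/C, LAP2alpha and lamin B1 was measured in 12 ChIP-seq libraries. The 4 genes were taken by name from 22208 protein-coding genes of an mm9 annotation. For each gene the percent of its length in EDD peaks (broad domains of enrichment over input, here called domains) and in SICER islands (shorter enriched stretches) was computed, with the distance to the nearest domain edge. A gene was called inside when at least 50% of its length lay in domains.

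SUN proteins span the inner nuclear membrane, where their nucleoplasmic ends contact the lamina and their SUN domains reach into the lumen of the nuclear envelope. There they hold the KASH tails of nesprins, which cross the outer membrane. The giant nesprins encoded by Syne1 and Syne2 bind actin through their amino-terminal ends, so the complex joins the cytoskeleton to the nucleus. In fibroblasts it is known for moving and anchoring the nucleus. The genes were measured here as pieces of chromatin, and nothing in the lists reports on their RNA or protein.

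The cells were immortalized dermal fibroblasts (imMDF) of mouse, either Lap2alpha -/- (Tmpo KO), which lack the nucleoplasmic LAP2alpha isoform of the Tmpo gene, or Lap2alpha +/+ (Tmpo WT). Lamin A/C was precipitated with the antibodies N18 (against the N terminus) and 3A6 (against the Ig fold) from KO and WT cells, and LAP2alpha and lamin B1 were precipitated from WT cells. Chromatin of all groups was cross-linked with formaldehyde and sonicated for 30 or 12 cycles. The study used moderate shearing to favour open chromatin and extended shearing to favour compact chromatin. Each group was 1 library, so no spread between replicates and no p-value could be given. Whether the KO and WT lines were clones was not given in the sources used here, and neither the Tmpo deletion nor fibroblast markers could be checked from lists of regions. The lists held 194 to 370 domains and 4183 to 9159 islands per library, with 3989494 to 13601739 reads inside islands. At each sonication level the lamin A/C libraries of KO and WT were run in 1 lane, and so were both lamin B1 libraries. The sonication levels of lamin A/C and of LAP2alpha were run on different flow cells, so these effects cannot be told apart.

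The genes differed in size and setting. Sun1 (ENSMUSG00000036817.8, chr5:139676591-139725794, plus strand) spanned 49.2 kb and Sun2 (ENSMUSG00000042524.7, chr15:79554500-79572966, minus strand) spanned 18.5 kb. Syne1 (ENSMUSG00000019769.9, chr10:4795849-5326338, plus strand in mm9) spanned 530.5 kb, longer than 99.2% of genes, and Syne2 (ENSMUSG00000063450.7, chr12:76919121-77211913, plus strand) spanned 292.8 kb. The 1-Mb windows around the SUN genes were rich in G+C, at 50.5% for Sun1 and 50.02% for Sun2, against 41.1% for Syne1, 43.9% for Syne2 and a median of 44.1% over all genes. The windows held 19 genes around Sun1, 28 around Sun2, 5 around Syne1 and 14 around Syne2. The windows of Sun1 and Sun2 were richer in G+C than those of 97.3% and 95.8% of genes, and the Syne1 window was richer than those of 21.8%.

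The 150 bases before each annotated gene start are printed because the starts of the SUN genes lay in several domains and those of the nesprin genes in none. They are from mm9, 5′ to 3′ on the strand of the gene, with every CG dinucleotide in capitals.
Sun1 (chr5:139676441-139676590, plus strand): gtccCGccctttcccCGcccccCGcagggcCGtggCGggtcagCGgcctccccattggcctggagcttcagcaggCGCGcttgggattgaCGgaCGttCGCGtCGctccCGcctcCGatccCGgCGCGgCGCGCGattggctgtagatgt
Sun2 (chr15:79572967-79573116, minus strand): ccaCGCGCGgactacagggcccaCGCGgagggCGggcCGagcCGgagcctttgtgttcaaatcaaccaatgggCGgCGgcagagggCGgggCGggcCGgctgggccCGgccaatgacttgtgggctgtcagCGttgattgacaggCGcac
Syne1 (chr10:4795699-4795848, plus strand): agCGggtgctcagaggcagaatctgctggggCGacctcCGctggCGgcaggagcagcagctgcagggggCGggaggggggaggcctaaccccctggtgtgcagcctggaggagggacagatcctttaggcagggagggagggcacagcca
Syne2 (chr12:76918971-76919120, plus strand): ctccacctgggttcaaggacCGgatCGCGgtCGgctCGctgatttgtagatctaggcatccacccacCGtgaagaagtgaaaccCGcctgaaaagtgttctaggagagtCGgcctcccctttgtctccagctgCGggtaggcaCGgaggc
The Sun1 stretch held 21 CG dinucleotides and the Sun2 stretch 16, while Syne2 had 10 and Syne1 had 5, against a median of 6 over the 22208 genes. As many CG as in Sun1 were found before 6.29% of gene starts, as many as in Sun2 before 15.6%, as many as in Syne2 before 35.9% and as many as in Syne1 before 56.0%. The letters CCAAT, searched on both strands after the sequences had been seen, occurred 2 times in Sun1, 2 times in Sun2 and 0 times in either nesprin gene, and 6.76% of all such stretches held 2 or more. The Syne2 transcript with the longest coding sequence starts further into the gene, and the 150 bases before its start held 18 CG, more than in Sun2. The RefSeq promoter of Syne2 has that later start, whereas each other member has a RefSeq promoter at the start used here. RefSeq has further promoters inside Sun1 and Syne1, where CG was not counted. Before the start of the Syne1 transcript with the longest coding sequence, the 150 bases held 2 CG. The counts for Syne1 and Syne2 therefore depend on the start chosen. The Sun1 stretch lay in domains of 7 libraries, the Sun2 stretch in domains of 4 and the nesprin stretches in none. By SICER islands the order differed. The Sun2 stretch lay in islands of 5 libraries, the Syne1 stretch in 1 (lamin B1 at 30 cycles), and the Sun1 and Syne2 stretches in 0. A link between CG content and these calls was not tested.

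Sun1 was inside domains in 7 of the 12 libraries, Sun2 in 4, Syne2 in 1 and Syne1 in 0. Over all genes the median was 2 libraries, 6.89% of genes were inside in 7 or more, 28.6% in 4 or more, 67.1% in 1 or more and 32.9% in none. On their own chromosomes, 20.7% of chromosome 5 genes were inside in as many libraries as Sun1 or more, and 42.3% of chromosome 15 genes in as many as Sun2 or more. Sun1 was held in domains of N18, 3A6 and LAP2alpha, and Sun2 in domains of N18 and LAP2alpha but not of 3A6. No member was held in a lamin B1 domain, where 16.8% of all genes were inside at 30 cycles and 7.78% at 12 cycles. With 4 genes and shares this low, no contrast between the proteins can be read from that.

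**Figure D1:**
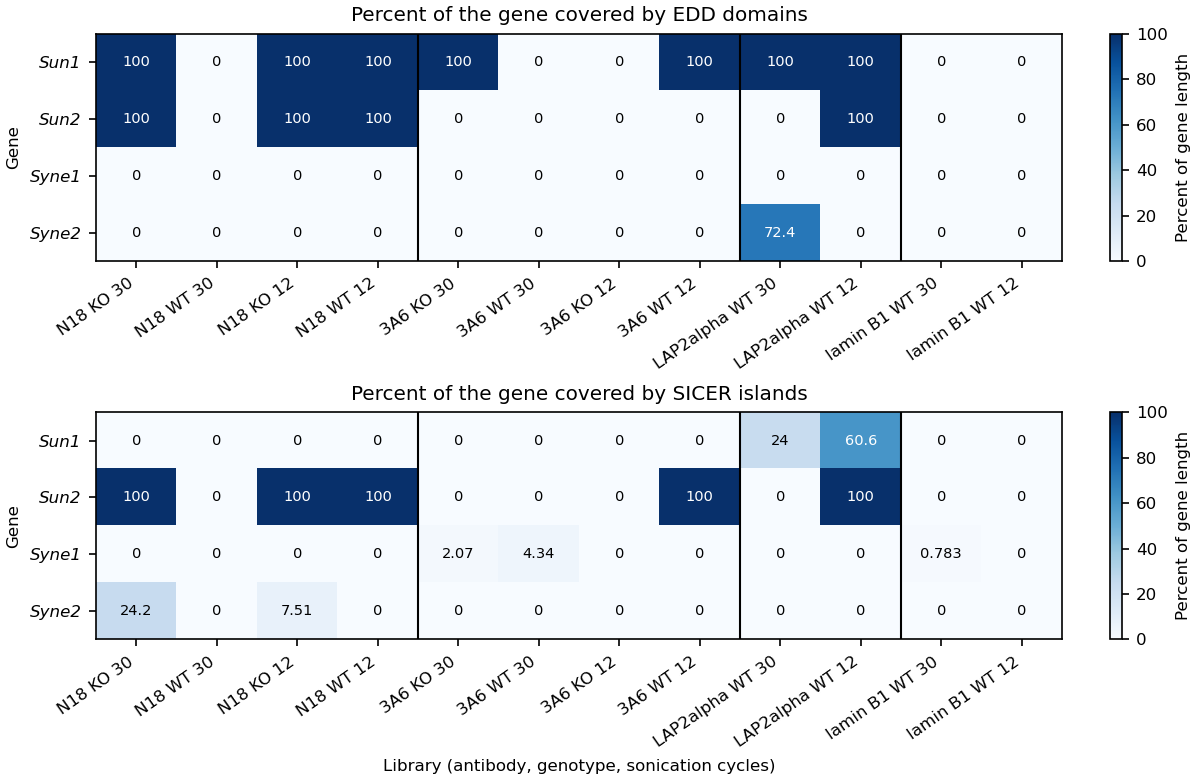
Percent of each gene covered by EDD domains (upper panel) and SICER islands (lower panel) in the 12 libraries, named by antibody, genotype and sonication cycles. Domains covered Sun1 and Sun2 wholly or not at all, and the only partial domain coverage was 72.4% of Syne2 in LAP2alpha after 30 cycles.

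With the N18 antibody after 30 cycles 2 of 4 members, Sun1 and Sun2, were inside in KO, where 28.5% of all genes were, and 0 of 4 in WT, where 5.89% were. After 12 cycles Sun1 and Sun2 were inside in KO, where 23.1% of genes were, and also in WT, where 27.4% were. With 3A6 after 30 cycles Sun1 alone was inside in KO (12.6% of genes) and no member was in WT (9.4% of genes). After 12 cycles no member was inside in KO (10.7% of genes) and Sun1 alone was in WT (21.1% of genes). In LAP2alpha libraries of WT, Sun1 and Syne2 were inside after 30 cycles (32.3% of genes) and Sun1 and Sun2 after 12 cycles (35.9% of genes). Lamin B1 domains held 0 of 4 members after 30 cycles (16.8% of genes) and 0 of 4 after 12 cycles (7.78% of genes).

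Read as KO against WT, N18 domains after 30 cycles gained Sun1 and Sun2 and lost no member, in a comparison in which 24.4% of all genes were inside in KO alone and 1.76% in WT alone. N18 domains after 12 cycles gained and lost no member, with 7.64% of genes inside in KO alone and 11.9% in WT alone. For 3A6 after 30 cycles Sun1 was gained (8.94% of genes in KO alone and 5.75% in WT alone), and after 12 cycles Sun1 was lost (5% in KO alone and 15.4% in WT alone). Sun1 was therefore inside in both KO lamin A/C libraries and neither WT library after 30 cycles, a pattern of 941 genes, or 4.24% of all. Where members moved, they moved in the direction that had the larger genome-wide share, and with 4 genes and 1 library per group nothing particular to the members can be read from them.

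Sun1, whose product binds lamin A at the inner nuclear membrane, was covered to 100% with N18 in KO at 30 cycles, in KO at 12 cycles and in WT at 12 cycles, against 0% in WT at 30 cycles. With 3A6 it was covered to 100% in KO at 30 cycles and 0% in KO at 12 cycles, against 0% in WT at 30 cycles and 100% in WT at 12 cycles. It was covered to 100% by LAP2alpha domains at 30 and at 12 cycles and to 0% by lamin B1 domains at either. The genotype difference thus had opposite signs at the sonication levels with 3A6, while with N18 it was present at 30 cycles alone.

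The domains that held Sun1 were of 2 kinds by size. In N18 KO at 30 cycles the domain was chr5:110726001-143209000 (32.5 Mb), the longest of 339 in that library. In N18 WT at 12 cycles it was chr5:110506001-143209000 (32.7 Mb) and in 3A6 WT at 12 cycles chr5:111551001-143187000 (31.6 Mb), each the longest of its library. Sun1 lay 28.1 to 29.2 Mb from the left edge of these and of the LAP2alpha domain at 12 cycles, deep in a block that held 438 to 560 genes.
The other domains began close to the gene. In N18 KO at 12 cycles the domain was chr5:139161001-143209000 (4.05 Mb, 46 genes), in 3A6 KO at 30 cycles chr5:139150001-142791000 (3.64 Mb, 39 genes) and in LAP2alpha at 30 cycles chr5:139579001-143209000 (3.63 Mb, 41 genes). The left edges of both KO domains were 11 kb apart, 1 bin of the domain caller, and lay 516 and 527 kb before Sun1, whereas the LAP2alpha edge lay 97.6 kb before it. A right edge at 143209000, 3.48 Mb after the gene, was shared to the base by 4 libraries, namely N18 KO at 30 cycles, N18 KO at 12 cycles, N18 WT at 12 cycles and LAP2alpha at 30 cycles. With N18 at 12 cycles Sun1 was therefore inside in KO and in WT, but in a domain of 4.05 Mb in KO and of 32.7 Mb in WT.

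Where Sun1 was outside, domains were still found after it. The nearest edge was 1.58 Mb away in 3A6 KO at 12 cycles, 1.61 Mb in N18 WT at 30 cycles, 1.62 Mb in 3A6 WT at 30 cycles, and 1.76 and 1.78 Mb in lamin B1 at 30 and 12 cycles. Among domains scoring above the median the edge in 3A6 WT at 30 cycles lay at 5334 kb, and the others were unmoved. All 12 libraries shared the stretch chr5:141504001-142538000 (1.03 Mb), which began 1.78 Mb after Sun1 and held Sdk1, the gene of a cell adhesion protein. Sun1 thus lay in a stretch before this shared core that was added or not from library to library. Its neighbours Heatr2 and Get4, 14.1 kb before and 2.48 kb after it, had the same call as Sun1 in 12 of 12 libraries. The same 12 calls were found for 180 other genes, 135 of them on chromosome 5, so they describe a block and not the gene alone. On chromosome 5 as a whole, 51.9% of genes were inside in N18 KO and 9.68% in N18 WT at 30 cycles, and 34.4% in 3A6 KO and 8.84% in 3A6 WT. At 12 cycles the shares were 34.4% in N18 KO and 48.0% in N18 WT, and 9.84% in 3A6 KO and 46.3% in 3A6 WT. These shares moved with the calls of Sun1 in both antibodies, and their part in them was not tested.

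**Figure D2:**
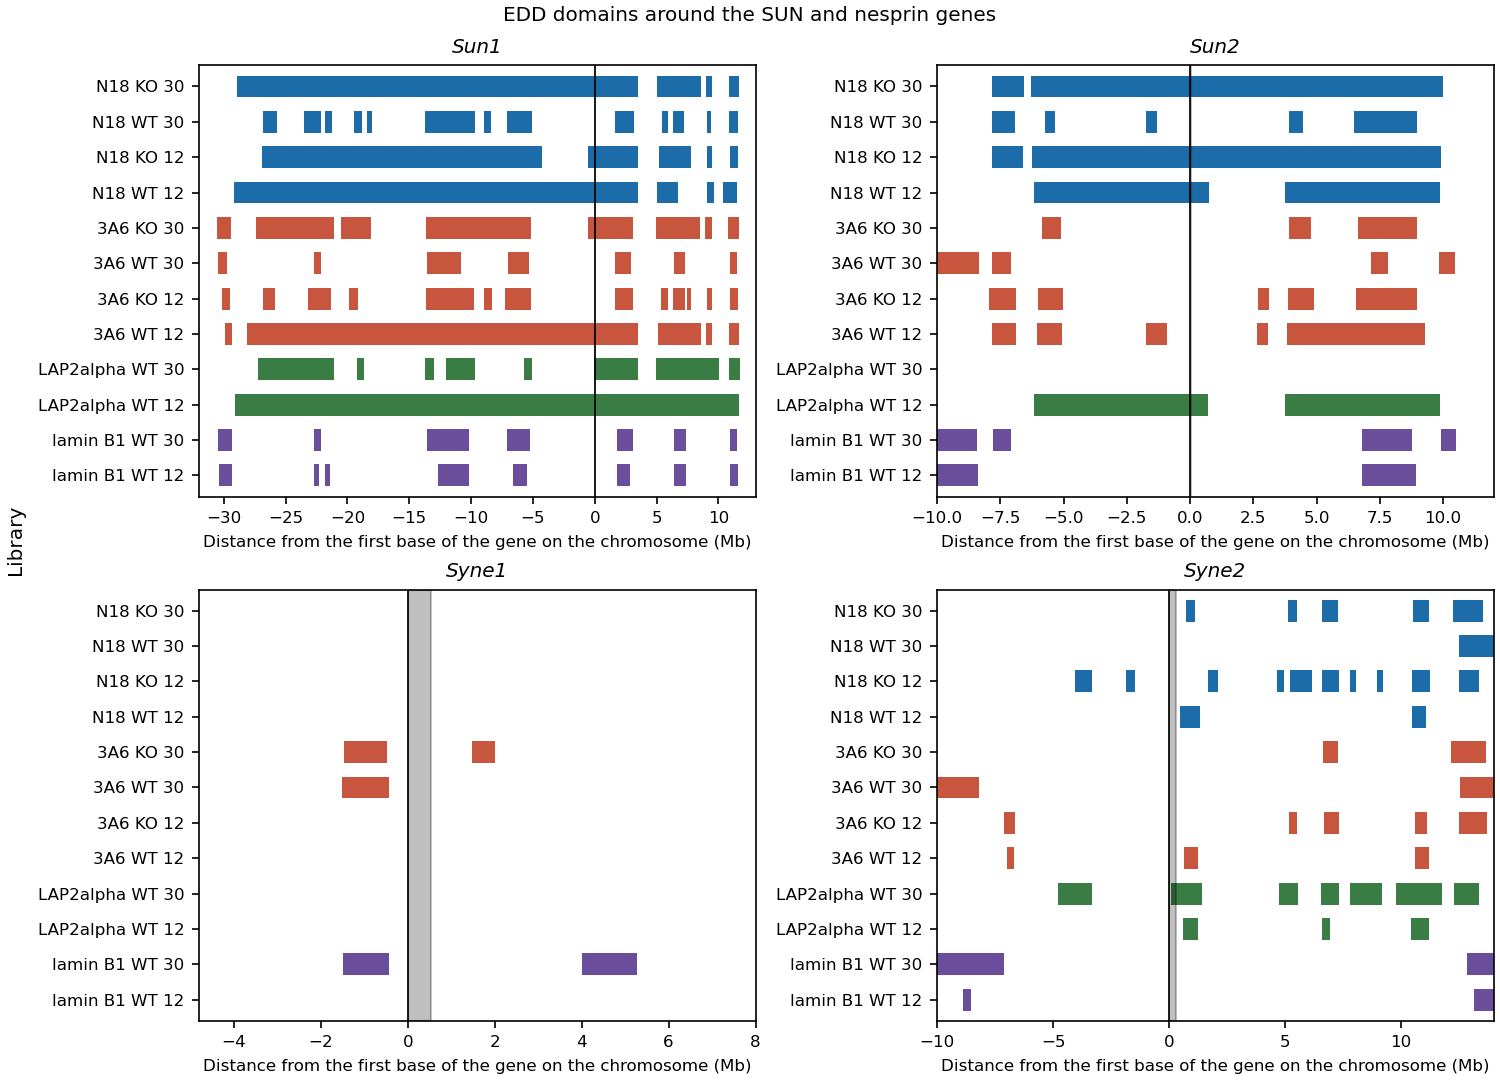
EDD domains around each gene, 1 row per library, with the distance in Mb from the lowest mapped base of the gene; grey marks the gene. Sun1 and Sun2 sit inside long domains in several libraries, and the edge of a LAP2alpha domain at 30 cycles falls in Syne2. Syne1 sits outside domains in every library, with a domain shortly before it in 3A6 KO, 3A6 WT and lamin B1 at 30 cycles.

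Sun2, a SUN protein that also binds A-type lamins and shares nesprin partners with SUN1, was covered to 100% with N18 in KO at 30 cycles, in KO at 12 cycles and in WT at 12 cycles, against 0% in WT at 30 cycles. It was covered to 0% in all 4 libraries of 3A6. LAP2alpha domains covered it to 0% at 30 cycles and 100% at 12 cycles, and lamin B1 domains to 0% at either. On chromosome 15 as a whole, 50.1% of genes were inside in N18 KO and 7.197% in N18 WT at 30 cycles, and 50.6% in N18 KO and 40.4% in N18 WT at 12 cycles. These shares moved with the calls of Sun2, and their part in them was not tested. The same 12 calls were found for 359 other genes, 199 of them on chromosome 15. Calls for Sun2 with N18 equalled those for Sun1, while with 3A6 the 2 genes differed in KO at 30 cycles and in WT at 12 cycles.

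The right edge of the domain around Sun2 lay farther out in the 2 KO libraries than in the 2 WT libraries that held the gene. Only N18 at 12 cycles sets KO beside WT with the same antibody and sonication, at 1 library each. The domains were chr15:73271001-89562000 (16.3 Mb, 331 genes) in N18 KO at 30 cycles and chr15:73293001-89485000 (16.2 Mb, 331 genes) in N18 KO at 12 cycles, and Sun2 lay 9.99 and 9.91 Mb from their right edges. The WT domains were chr15:73370001-80311000 (6.94 Mb, 187 genes) with N18 at 12 cycles and chr15:73392001-80245000 (6.85 Mb, 186 genes) with LAP2alpha at 12 cycles. Their right edges lay 738 and 672 kb after the mapped end of the gene. The left edges of all 4 were at most 121 kb apart, while the KO right edges were 9.17 to 9.32 Mb beyond the WT ones. Where Sun2 was outside, the nearest edge was 0.915 Mb away in 3A6 WT at 12 cycles, 1300.5 kb in N18 WT at 30 cycles and 20.4 Mb in LAP2alpha at 30 cycles. Among domains scoring above the median the N18 WT edge lay at 3873 kb, while those of 3A6 WT at 12 cycles and LAP2alpha at 30 cycles were unmoved. In that LAP2alpha library domains covered 0.244% of chromosome 15 and held 0.884% of its genes, and the part of this in the call of Sun2 was not tested.

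Sun2 was the member with the most complete island coverage, on a chromosome rich in islands. Islands covered 8.17% to 33.9% of chromosome 15 over the 12 libraries, lamin B1 included (29.2% at 30 cycles and 26.5% at 12 cycles). They covered at most 6.78% of chromosome 5, 3.89% of chromosome 10 and 3.80% of chromosome 12. The part of this in the islands on Sun2 was not tested. Islands covered 100% of it, start included, in 5 libraries and 0% in the other 7. In N18 KO the islands were chr15:79537001-79700000 at 30 cycles (163 kb with 9451 reads, 58.0 reads per kb, exact Poisson interval 56.8 to 59.2) and chr15:79536001-79805000 at 12 cycles (269 kb with 7265 reads, 27.01 reads per kb, 26.4 to 27.6). In N18 WT at 12 cycles the island was chr15:79537001-79695000 (158 kb with 3794 reads, 24.0 reads per kb, 23.3 to 24.8). The intervals are at 95%, cover counting error only and do not compare libraries of unequal depth. The N18 KO island at 12 cycles was longer than 99.3% of islands in its library and denser than 98.8% of them, and at 30 cycles the island was longer than 97.1% and denser than 97.1%.
In 3A6 WT at 12 cycles an island of 57 kb with 1298 reads (22.8 reads per kb) covered the whole gene and began 0.499 kb before its lowest base, although no domain held it. In LAP2alpha at 12 cycles the island was chr15:79539001-79697000 (158 kb with 3656 reads, 23.1 reads per kb). N18 in KO, N18 in WT and LAP2alpha at 12 cycles therefore had island edges within 3 kb of each other on the side of the gene's 3′ end. Chromosome 15 was covered by islands to 28.2% to 33.9% in the 3 N18 libraries with an island on Sun2, and to 29.0% in N18 WT at 30 cycles, where the nearest island was 891 kb from Sun2. Islands touched 67.05% of chromosome 15 genes in N18 KO and 34.2% in N18 WT at 30 cycles, and 71.6% in N18 KO and 69.1% in N18 WT at 12 cycles. The share of genes touched moved with the islands on Sun2, and its part in them was not tested.

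Syne1, the gene of giant nesprin-1, was covered to 0% by domains in all 12 libraries. In mm9 the nearest domain lay before the gene at 484 kb in 3A6 KO at 30 cycles, and at 440 kb in 3A6 WT at 30 cycles and in lamin B1 at 30 cycles. RefSeq places Syne1 on the minus strand of the later build GRCm38, so the side and distance hold for mm9 alone. In 7 other libraries the nearest domain lay 26.3 to 56.0 Mb away. Among domains scoring above the median the distance in 3A6 KO at 30 cycles was 16674 kb, against an unmoved 440 kb in 3A6 WT. In N18 KO and in 3A6 KO at 12 cycles chromosome 10 had no domain at all, whereas WT domains at 12 cycles held 27.05% of its genes with N18 and 13.7% with 3A6. In those KO libraries the chromosome had 1 and 0 islands, against 208 in N18 WT and 223 in 3A6 WT at 12 cycles, and the part of this chromosome-wide difference in the call of Syne1 was not tested. Its neighbours Myct1 and Esr1 were inside in 0 libraries too. The predicted gene Gm10097 overlaps Syne1, and region lists cannot assign a region to either.

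Short islands touched Syne1 in 3 libraries. In 3A6 KO at 30 cycles an island of 11 kb (508 reads, 46.2 reads per kb) lay 123 kb into the gene and took in exons 5 to 8 of the 144 exons of the transcript with the longest coding sequence. In 3A6 WT at 30 cycles an island of 23 kb (762 reads, 33.1 reads per kb) lay 94.2 kb into the gene over exons 3 to 4, and the islands did not overlap. In lamin B1 at 30 cycles an island of 29 kb (937 reads, 32.3 reads per kb) covered the gene start and ended 4.15 kb into the gene, before the first exon of that transcript. These islands covered 2.07%, 4.34% and 0.783% of the gene and were less dense than the islands of their libraries together, which had 49.0, 38.4 and 38.7 reads per kb. Ranked among single islands, they were denser than 39.1%, 3.39% and 1.04%.

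Syne2, the gene of giant nesprin-2, was covered to 72.4% in LAP2alpha at 30 cycles and to 0% in the other 11 libraries. The domain was chr12:77000001-78331000 (1.33 Mb, 17 genes), so that its left edge fell 80.9 kb into the gene. Of the 116 exons of the transcript with the longest coding sequence, exons 11 to 116 lay in the domain with 95.2% of the coding bases, and the 10 exons at the 5′ end lay outside. The exons that encode the actin-binding end of the protein were thus outside and those of the KASH end inside. That library's domains covered 75.3% of chromosome 12 and held 78.3% of its genes, which was the setting of this call, and its part was not tested. At 12 cycles LAP2alpha domains covered 22.8% of the chromosome, and the nearest lay 305 kb after Syne2.
Other domains also lay just after Syne2. The nearest edge was 184 kb away in N18 WT at 12 cycles, 371 kb in 3A6 WT at 12 cycles and 448 kb in N18 KO at 30 cycles, and 7.27%, 15.2% and 23.1% of the genes outside domains in these libraries lay nearer to an edge. In the remaining 7 libraries it was 1.37 Mb (N18 KO at 12 cycles) to 12.2 Mb (N18 WT at 30 cycles) away. With N18 after 12 cycles the edge was thus farther in KO, at 1.37 Mb, than in WT, at 184 kb, and after 30 cycles it was nearer in KO, at 0.448 Mb, than in WT, at 12.2 Mb. The order after 12 cycles rests on low-scoring domains: among those scoring above the median the edge was nearer in KO, at 4903 kb, than in WT, at 25990.1 kb. After 30 cycles the KO edge then lay at 6311 kb. The nearby edges at 12 cycles in 3A6 WT and LAP2alpha likewise gave way to ones at 25990.1 and 10150 kb. Esr2, 9.49 kb after the gene, had the same call as Syne2 in 12 of 12 libraries, and Sgpp1, 82.4 kb before it, was inside in none. The genes on other chromosomes whose domain coverage was most like that of Syne2, by mean absolute difference over 12 libraries, were Dennd5b (0.133 percentage points), 4930452B06Rik (0.148) and Paqr5 (0.158). For the other members 35 (Sun1), 149 (Sun2) and 6710 (Syne1) genes on other chromosomes had equal coverage, and none is named.

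SICER islands on Syne2 were found in N18 KO alone. At 30 cycles 4 islands of 16 to 19 kb (738 to 812 reads each, 42.0 to 46.1 reads per kb) covered 24.2% of the gene, over exons 3 to 6, 46 to 51, 82 to 93 and 97 to 100. At 12 cycles 1 island of 22 kb (407 reads, 18.5 reads per kb) covered 7.51%, over exons 51 to 58. All of them were less dense than the islands of their library together (49.6 reads per kb at 30 cycles and 21.7 at 12 cycles). Ranked among single islands, they were denser than 6.49% to 47.6% at 30 cycles and 10.9% at 12 cycles. The chromosome changed with them. Chromosome 12 carried 228 and 199 islands in N18 KO at 30 and 12 cycles, 79 and 109 in 3A6 KO, and 0 to 5 in each of the 8 WT libraries. The islands on Syne2 therefore moved with a difference between the KO and WT libraries over the whole chromosome, and its part in them was not tested. Whether the KO and WT lines differed in the copy number of chromosomes 10, 12 or 15 was not tested either, since the inputs were not analysed here.

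**Figure D3:**
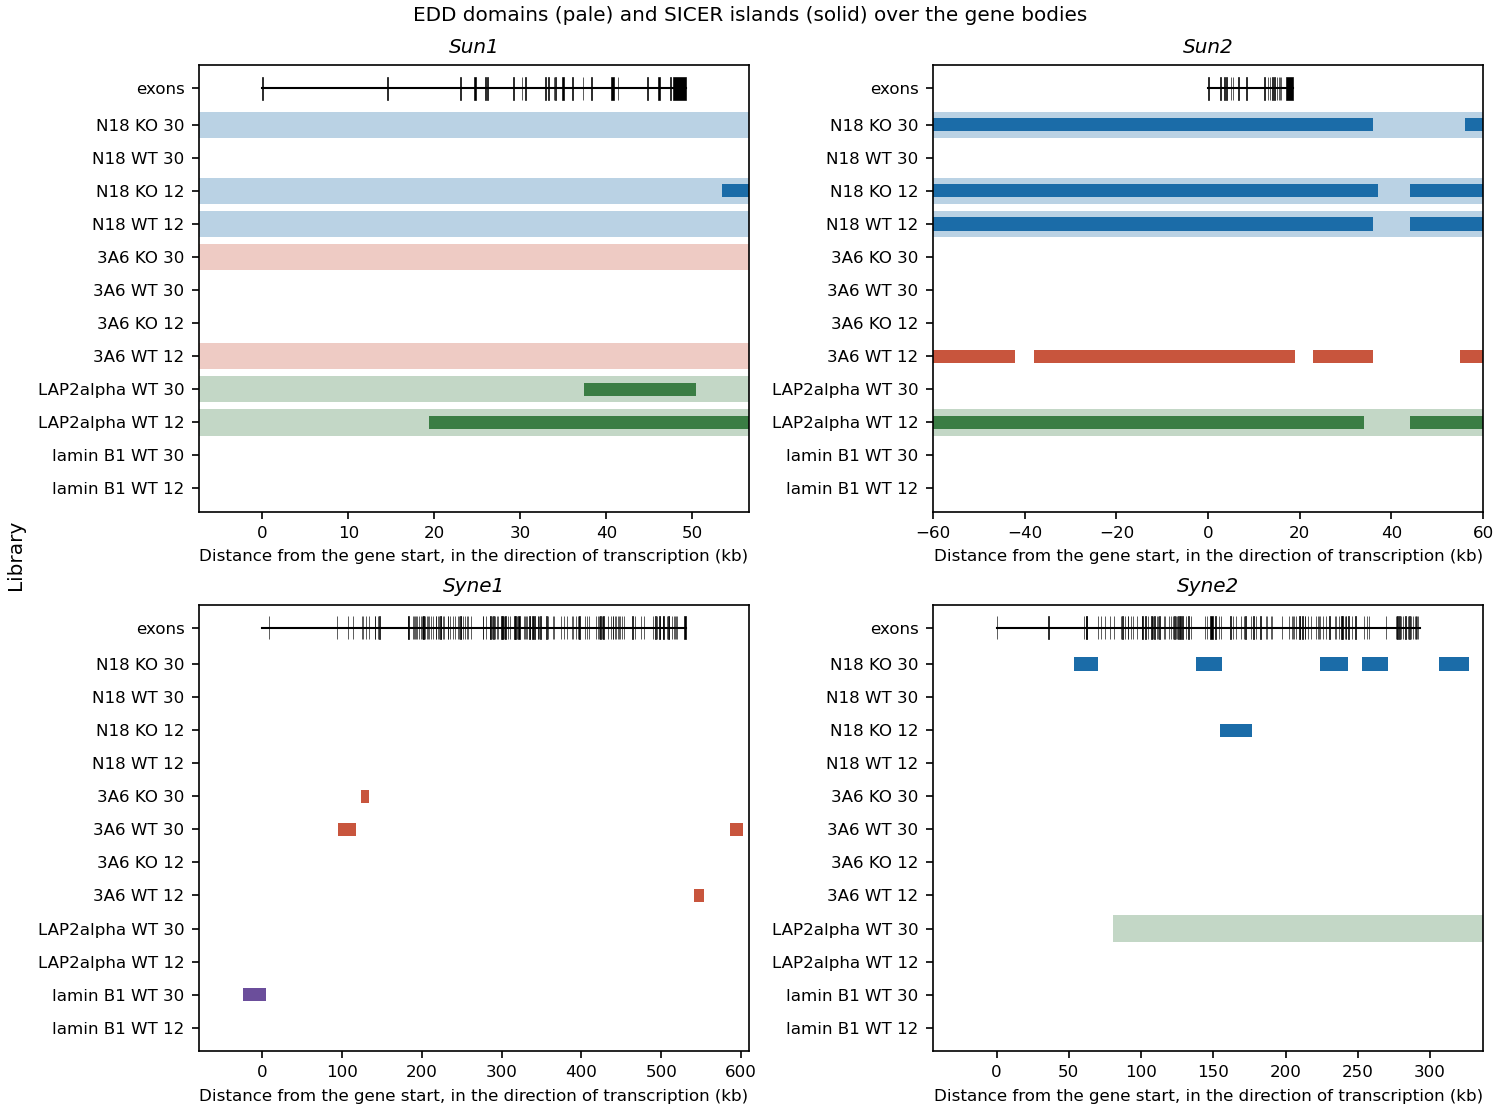
Domains (pale) and SICER islands (solid) over each gene in the 12 libraries, with exons of the transcript with the longest coding sequence at the top and the distance from the gene start in kb along the direction of transcription. Islands span all of Sun2 in 5 libraries, reach the 3′ end of Sun1 in LAP2alpha alone, and are short in Syne1 and Syne2.

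Islands on Sun1 were found with LAP2alpha alone. At 30 cycles an island of 13 kb (chr5:139714001-139727000, 488 reads, 37.5 reads per kb) covered 24.0% of the gene and exons 17 to 23 of the 23 exons of its longest coding transcript. At 12 cycles an island of 55 kb (chr5:139696001-139751000, 1015 reads, 18.5 reads per kb) covered 60.6% and exons 3 to 23. Both took in the 3′ exons, which encode the end of the protein with the SUN domain, and neither covered the gene start. Both were less dense than the islands of their libraries together (38.4 reads per kb at 30 cycles and 21.1 at 12 cycles). At 30 cycles the exact Poisson interval of the island, 34.3 to 41.0 reads per kb, included the library value. The interval at 12 cycles, 17.3 to 19.6 reads per kb, lay below it. Among single islands, the island at 30 cycles was denser than 60.3% and the island at 12 cycles denser than 15.6%. In lamin A/C libraries the nearest island was 8.59 kb from Sun1 in N18 KO at 30 cycles, 4.21 kb in N18 KO at 12 cycles, 9.21 kb in N18 WT at 12 cycles and 39.6 kb in 3A6 WT at 12 cycles. In 3A6 KO at 30 cycles it was 1093 kb away, although a domain held the whole gene.

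Counted by any overlap with an island, 2 of 4 members (Sun2 and Syne2) were touched in N18 KO at 30 cycles and 0 of 4 in N18 WT, where 22.7% and 14.6% of all genes were. At 12 cycles Sun2 and Syne2 were touched in N18 KO (24% of genes) and Sun2 in N18 WT (26%). With 3A6 Syne1 was touched in KO (8.84%) and in WT (8.27%) at 30 cycles, no member was in KO at 12 cycles (12.9%), and Sun2 was in WT at 12 cycles (22.3%). LAP2alpha islands touched Sun1 at 30 cycles (18.5%) and Sun1 and Sun2 at 12 cycles (27.8%). Lamin B1 islands touched Syne1 at 30 cycles (8.17%) and no member at 12 cycles (8.93%). Syne1 and Syne2, longer than 99.2% and 97.5% of genes, offer more bases to such an overlap.

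**Figure D4:**
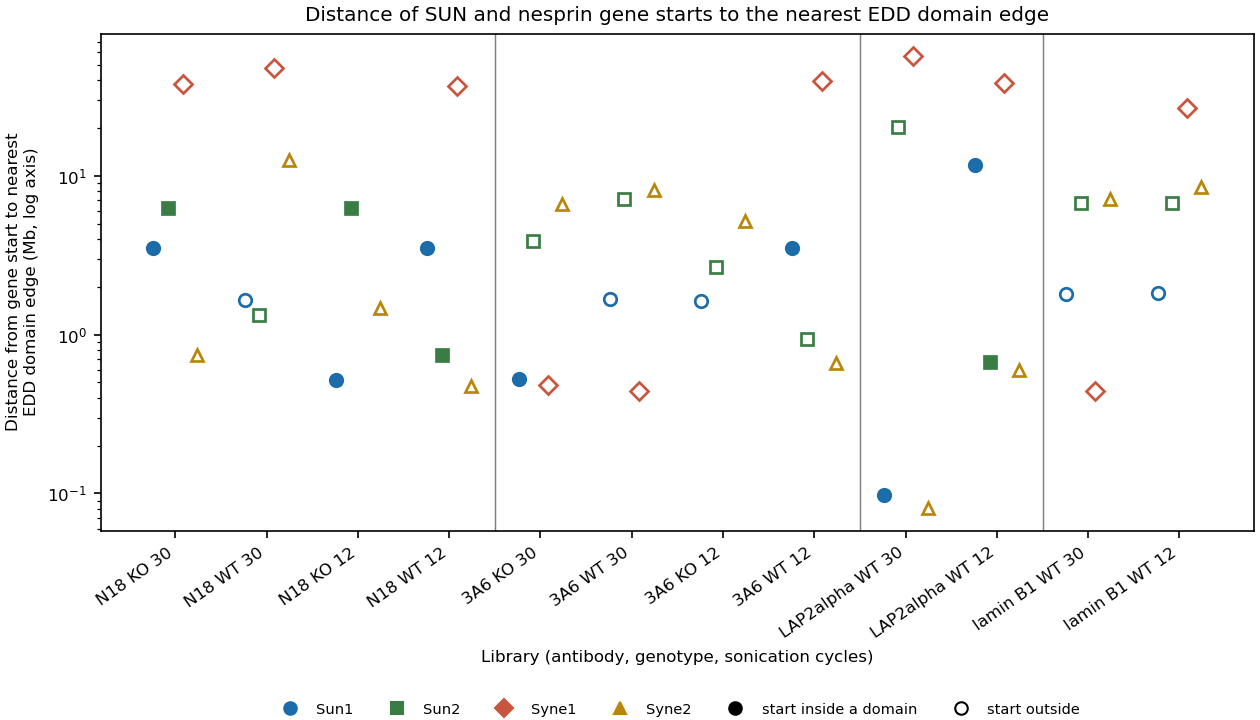
Distance in Mb (log axis) from each gene start to the nearest EDD domain edge by library, filled where the start lay inside a domain and open where it lay outside; Syne1 has no point in N18 KO and 3A6 KO at 12 cycles, where chromosome 10 had no domain. Filled points are those of Sun1 (7 libraries) and Sun2 (4 libraries), and the open points of Syne1 are at 0.440 to 0.484 Mb in 3 libraries and at 26.9 Mb or more in the others.

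Other genes of the pathway were described from lists. Of 8 further SUN and KASH genes, 7 were inside in at least 1 library, as were 67.1% of all genes, and their median was 4.5 libraries, against 2.5 for the 4 members and 2 for all genes. Sun5, a SUN gene of the male germ line, was inside in 9 libraries, among them N18 WT at 30 cycles, where no member was, and in neither lamin B1 library. Syne3 (nesprin-3, which binds plectin) was inside in 7, Syne4 (nesprin-4, which binds kinesin-1) in 6, and Ccdc155 (the KASH5 gene of meiotic chromosome movement) in 5. Of all genes, 2.08% were inside in 9 or more libraries, 6.89% in 7 or more, 12.0% in 6 or more and 19.9% in 5 or more. Sun3 was inside in 4 libraries, Lrmp in 2, Spag4 in 1 and Suco in 0. Sun3 was the only gene of these 8 held by lamin B1 domains, to 85.0% at 30 cycles, where 16.8% of all genes were inside.
Of 11 partners in the nuclear envelope 7 were inside in at least 1 library, with a median of 1, a share near the 67.1% of all genes. Lmna (lamin A/C), Tmpo (LAP2alpha), Nup153 (a nuclear pore protein) and Lemd3 (the LEM protein MAN1) were inside in 0. Tmem43 (the membrane protein LUMA) and Tor1a (torsin A) were inside in both WT lamin A/C libraries and neither KO library at 12 cycles, a pattern of 1260 genes, or 5.67% of all. Of 15 cytoskeletal partners 10 were inside in at least 1 library, with a median of 1, again near the 67.1% of all genes. Inside in 0 libraries were Dst (dystonin), Fhod1 (a formin that binds nesprin-2), Kif5b (kinesin-1 heavy chain), Pcm1 and Akap9 (centrosome proteins). None of the 38 listed genes, members included, was inside in 10 or more libraries, as were 0.788% of all genes. Plec (plectin, on chromosome 15 like Sun2) and Actg1 (gamma-actin, on chromosome 11) were inside in the same 4 libraries as Sun2. That was a pattern of 359 genes besides Sun2, or 1.62% of all, and Plec lay in the same 4 domains as Sun2.

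**Figure D5:**
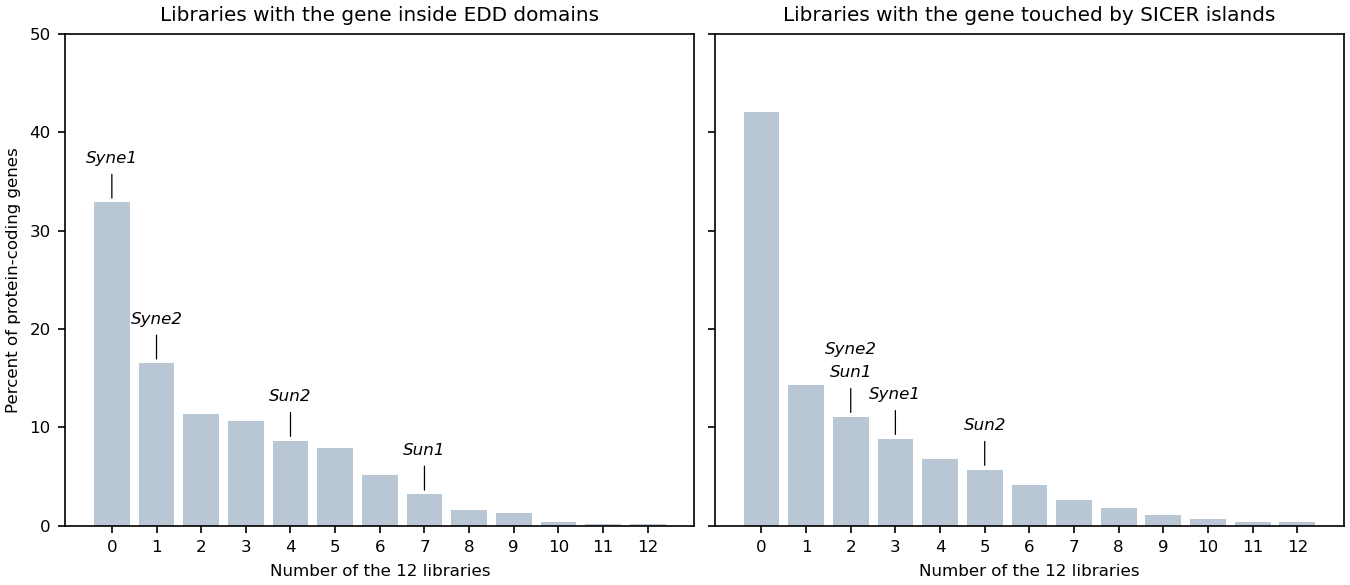
Percent of the 22208 protein-coding genes (bars) by the number of the 12 libraries in which the gene was inside EDD domains (left) or touched by SICER islands (right), with the members marked. By domains Sun1 stands at 7 libraries, Sun2 at 4, Syne2 at 1 and Syne1 at 0, and by islands Sun2 stands at 5, Syne1 at 3, and Sun1 and Syne2 at 2.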

How the data were processed

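Regions of 12 ChIP-seq libraries were analysed, and 12 further samples of the 24 (4 inputs and 8 histone-mark libraries) were not analysed here. Per the study's methods and the submitters' notes, reads were clipped with cutadapt, aligned to mm9 with Bowtie2 2.1.0, filtered at a mapping quality of 20 and cleared of duplicates, and ChIP reads were thinned with Picard to as many as in the input. Island lists deposited by the authors (SICER 1.1, window 1000 bp, gap 3000 bp) hold counts, the reads per island. Domain lists deposited by the authors (EDD 1.0.2, bin 11 kb) hold a score per domain, used here only to rank domains. Reads inside islands ranged from 3989494 to 13601739 per library. They count reads of islands already called and are not the depth of the library, which limits which regions could be called.

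With Python 3.11.15 and numpy 2.4.6, coverage and distances were computed on the gencode M1 annotation, 22350 records of chromosomes 1 to 19 and X reduced to 22208 symbols by keeping the longest record. Positions are 1-based, and 0 regions passed a chromosome end. Groups followed the GEO labels, and flow cell and lane the deposited lists' names. With 1 library per group no test was run. The code returned 200 of 200 planted genes on simulated data. RefSeq promoter sequences (GRCm38.p6) matched mm9 exactly. Their starts were the gene record's for Sun1, Sun2 and Syne1, with further ones inside Sun1 and Syne1, and a later one for Syne2. Named were the members, their neighbours, the 3 most alike genes on other chromosomes where not tied, and listed genes inside in at least 10 or in 0 libraries or in all of 1 genotype and none of the other within an antibody or sonication. The other listed SUN and KASH genes, Plec and Actg1 were named after their values had been seen. Members and lists were chosen with earlier results of these data known. Alternatives were SICER islands, at least 1 bp, the whole gene, the transcription start, the promoter window (2200 bp before to 500 bp after the start), domains above the median score or of at least 500 kb, and flanks of 500 kb. Added after the data were seen were any overlap with an island and the transcript with the longest coding sequence.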

Additional observations from a re-analysis of the deposited data

Results flagged for a closer look

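Sun1 is given here because its coverage by 3A6 domains differed between KO and WT in opposite directions at the 2 sonication levels. KO minus WT was 100 percentage points at 30 cycles (100% in KO and 0% in WT) and -100 percentage points at 12 cycles (0% in KO and 100% in WT). With SICER islands in place of domains both differences were 0 percentage points, since no 3A6 island touched Sun1. Each value rests on 1 library per group, and the difference between the sonication levels was not tested. The chromosome 5 genes inside 3A6 domains were 34.4% in KO and 8.84% in WT at 30 cycles, and 9.84% in KO and 46.3% in WT at 12 cycles.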

How the results depend on the processing

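The number of libraries holding each gene was the same with domains above the median score, domains of at least 500 kb, at least 1 bp covered and the transcript with the longest coding sequence. With SICER islands in place of domains Sun1 was inside in 1 library, Sun2 in 5, and Syne1 and Syne2 in 0. Counting any overlap with an island gave 2 libraries for Sun1, 5 for Sun2, 3 for Syne1 and 2 for Syne2. Syne2 was held in 0 libraries by its transcription start, by the promoter window or when the whole gene had to be covered, since the domain begins within the gene. Edge distances moved in 30 of 46 cases when taken from the transcription start, in 19 of 46 with domains above the median score and in 9 of 45 with domains of at least 500 kb, among them Syne2 in N18 KO at 30 cycles (6311 kb with both domain choices). KO minus WT coverage moved in 7 of 16 cases with SICER islands and in 4 of 16 with flanks of 500 kb, and was the same in 16 of 16 with either choice of domains. The shortest annotated record could not be tried, because each member has 1 gene record, and no library could be left out with 1 per group. No paired analysis was possible because the results come from no test. Island calls depend on read depth, and region lists give no depth at places without a region.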
